A study of Mus musculus with 6 samples.

Results

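The genes described here are 33 members of the meiotic recombination machinery, out of 53700 genes counted in RNA from whole mouse testes. They were chosen by name and grouped by the step they serve. The break formation group has 9 members, strand exchange 11 and crossover formation 13. Each symbol matched a single gene, 4 of them under an older symbol (Gm960 for Top6bl, Ccdc36 for Iho1, 4930432K21Rik for Brme1 and AI481877 for Shoc1). Members lay on 16 chromosomes, and Tex11 was the sole X-linked one.

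Testes came from 6 mice at postnatal day 45. The labels give all of them the strain Msl3em1Forni/C57BL/6J. The genotype is MSL3 WT for 3 mice and MSL3 cKO, a conditional knockout of a floxed Msl3 allele, for the other 3. Msl3 encodes a chromatin-binding subunit of the male-specific lethal complex, and the series asked whether its loss affects spermatogenesis. The recombinase, the cells in which it acts and the deleted exons are not given in the sources used here. One library was made per mouse, and the labels call these biological replicates. The libraries held 56991431 to 73766444 reads assigned to single genes, so even the lowest count of a member in a library, for Mei4, was 43 reads.

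Msl3 itself, as a check of the labels, had 942, 1226 and 990 reads in the WT libraries and 1170, 829 and 923 in the cKO libraries. Its log2 fold change was -0.12 (SE 0.088, edgeR adjusted p = 0.551), and the groups overlapped. The groups are therefore named by their labels, and a positive difference below means a higher level under the cKO label. Whole testis mixes germ cells of all stages with somatic cells, so fewer spermatocytes and less RNA per spermatocyte cannot be told apart. None of the 71 marker genes used to describe that mixture was at 0. Levels are in CPM, read counts relative to scaled library size, and a difference was called at an edgeR adjusted p under 0.05.

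In meiosis, recombination begins when a topoisomerase-like enzyme breaks both strands of the DNA, at sites that PRDM9 marks in the mouse. The broken ends are cut back to single strands, coated, and loaded with recombinases that search the homologous chromosome for a matching sequence. Some of the joined molecules are then stabilised and resolved as crossovers, which hold homologues together until they separate. Loss of many of these genes arrests spermatocytes and leaves male mice sterile.

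Promoter sequence was examined for what the members share beyond their function. RefSeq promoters of 300 bases (250 before and 50 after the start, build GRCm38.p6) matched 27 of the 33 members. Spo11, Meiob, Mcmdc2, Tex11, Shoc1 and Exo1 had no entry. Both strands were searched for the letters CNCCTCAG (the motif of STRA8, a regulator of meiotic entry), TAACTG (bound by MYB factors, among them the spermatocyte factor MYBL1) and GCGGGAA (bound by E2F factors). GCGGGAA occurred in 8 of the 27 members (29.6%), against 5.29% of all 27025 genes with a promoter. Those members were Brca2, Brme1, Hsf2bp, Msh5, Prdm9, Rec114, Rnf212 and Spata22. CNCCTCAG occurred in Hfm1, Msh5 and Prdm9 (11.1% of members against 9.12% of all genes), and TAACTG in Ccnb1ip1 and Prr19 (7.41% against 11.4%). Base composition differed too: the median promoter was 60.7% G or C with 17 CpG pairs in the members, and 52.7% with 7 in all genes. The shares of all genes given above were not matched for this composition, and GCGGGAA itself holds a CpG pair. A match describes letters only and was not tested for binding.

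The stretches of 56 bases below hold every match that lies before the RefSeq start and whose stretch is clear of annotated exons. They are written 5′ to 3′ on the strand of the gene, with matched letters in capitals. The Prdm9 stretch (chr17:15564371-15564426, minus strand) carries GCGGGAA in reverse and then CNCCTCAG, and the matches share 1 base. Those of Brca2 (chr5:150522428-150522483, plus strand) and Rnf212 (chr5:108775084-108775139, minus strand) carry GCGGGAA. That of Hfm1 (chr5:106925925-106925980, minus strand) holds CNCCTCAG in reverse. Those of Prr19 (chr7:25301235-25301290, plus strand) and Ccnb1ip1 (chr14:50795827-50795882, minus strand) hold TAACTG. The Hfm1 and Ccnb1ip1 stretches lie before the RefSeq start but inside the annotated gene (chr5:106840192-106926321 and chr14:50789248-50807732).
Prdm9: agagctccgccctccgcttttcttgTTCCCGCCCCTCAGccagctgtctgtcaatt
Brca2: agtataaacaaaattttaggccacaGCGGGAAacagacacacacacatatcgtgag
Rnf212: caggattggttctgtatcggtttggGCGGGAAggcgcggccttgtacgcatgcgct
Hfm1: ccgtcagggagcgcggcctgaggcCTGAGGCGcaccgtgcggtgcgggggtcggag
Prr19: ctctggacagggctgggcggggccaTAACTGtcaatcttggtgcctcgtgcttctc
Ccnb1ip1: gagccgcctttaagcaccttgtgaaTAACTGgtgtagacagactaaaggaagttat

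All 33 members had enough reads to be tested, and 0 passed the adjusted threshold, where 4 of the 21902 genes tested did (0.0183%). The lowest adjusted p of a member was 0.315, for Blm. DESeq2, run as an alternative, called 0 of the 26 members to which it gave an adjusted p, and 199 of all 12135 genes given one (1.64%). Blm was also the only member with an unadjusted p under 0.05, against 13.9% of all genes tested. The 3 cKO libraries lay wholly above or wholly below the 3 WT libraries for 9 members, a pattern found in 18.9% of all genes tested. Of these members 8 were higher in cKO and 1 was lower, while over all genes 2201 were higher and 1938 lower. In all, 21 members had a positive fold change and 12 a negative one, with a median log2 fold change of 0.04 against 0.00 over all genes tested. Member by member the log2 fold change ran from -0.12 for Swi5 to 0.23 for Brca2.

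The intervals of the edgeR fit bound differences in whole-testis level, gene by gene and without correction for transcript length. For 32 of the 33 members the 95% interval of the fold change lay within 0.5 on the log2 scale, that is 1.41-fold, in either direction. The exception was Mei4, the member with the fewest reads, whose interval ran from -0.27 to 0.56. Within the narrower bound of 0.25 (1.19-fold) lay the intervals of 15 members. Over all genes tested, 64.4% of intervals lay within 0.5 and 20.1% within 0.25. Coefficients of variation over the 6 libraries ran from 1.57% for Iho1 to 15.4% for Brca2. Their median was 5.77%, against 8.78% for all genes above 1 CPM. The median level of the members was 22.1 CPM, and these comparisons with all genes were not matched for level.

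**Figure D1:**
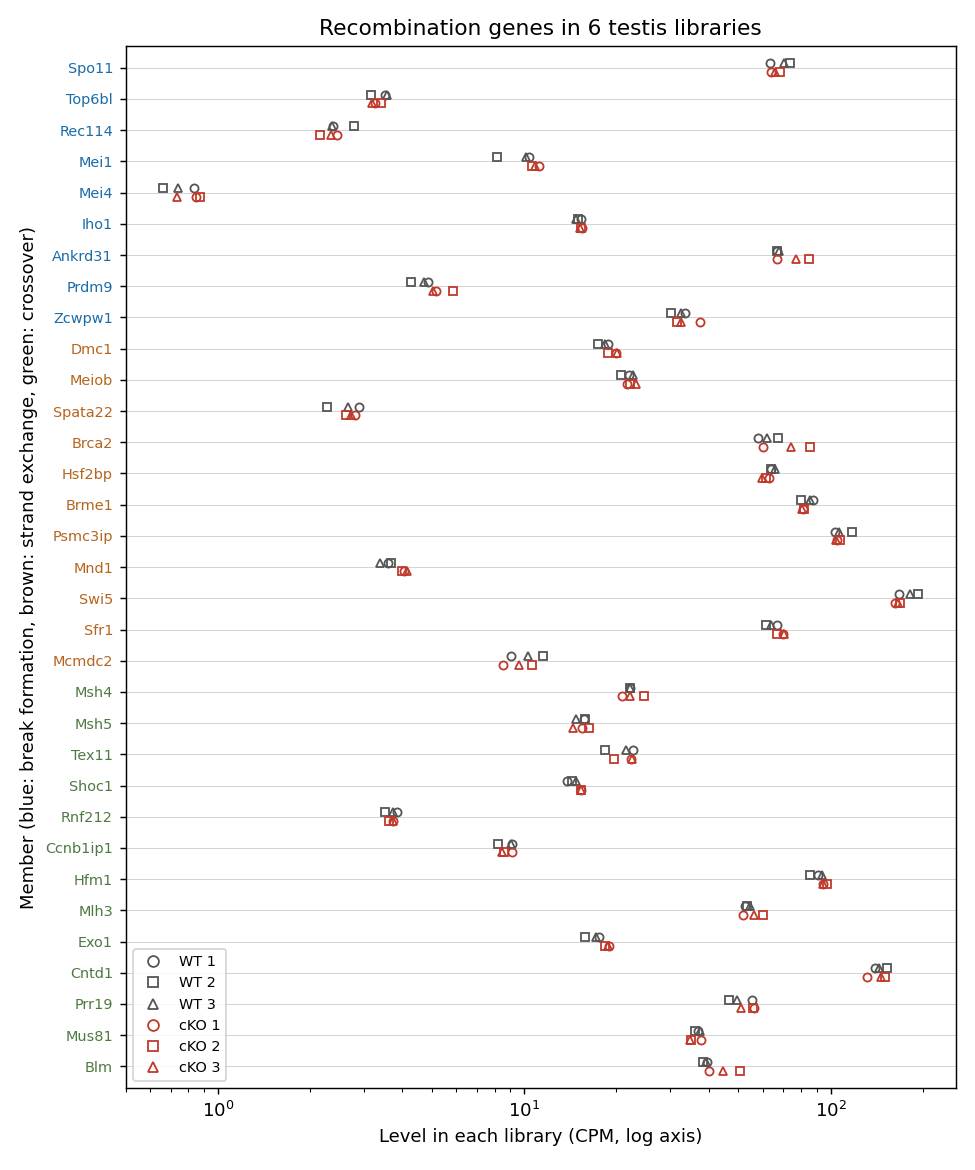
Level of each of the 33 members (rows) in CPM on a log axis, with an open symbol for each library (grey: 3 WT, red: 3 cKO) and names coloured by step. Levels span from under 1 CPM for Mei4 to 192.7 CPM for Swi5 in WT 2, and for most members the grey and red symbols overlap.

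**Figure D2:**
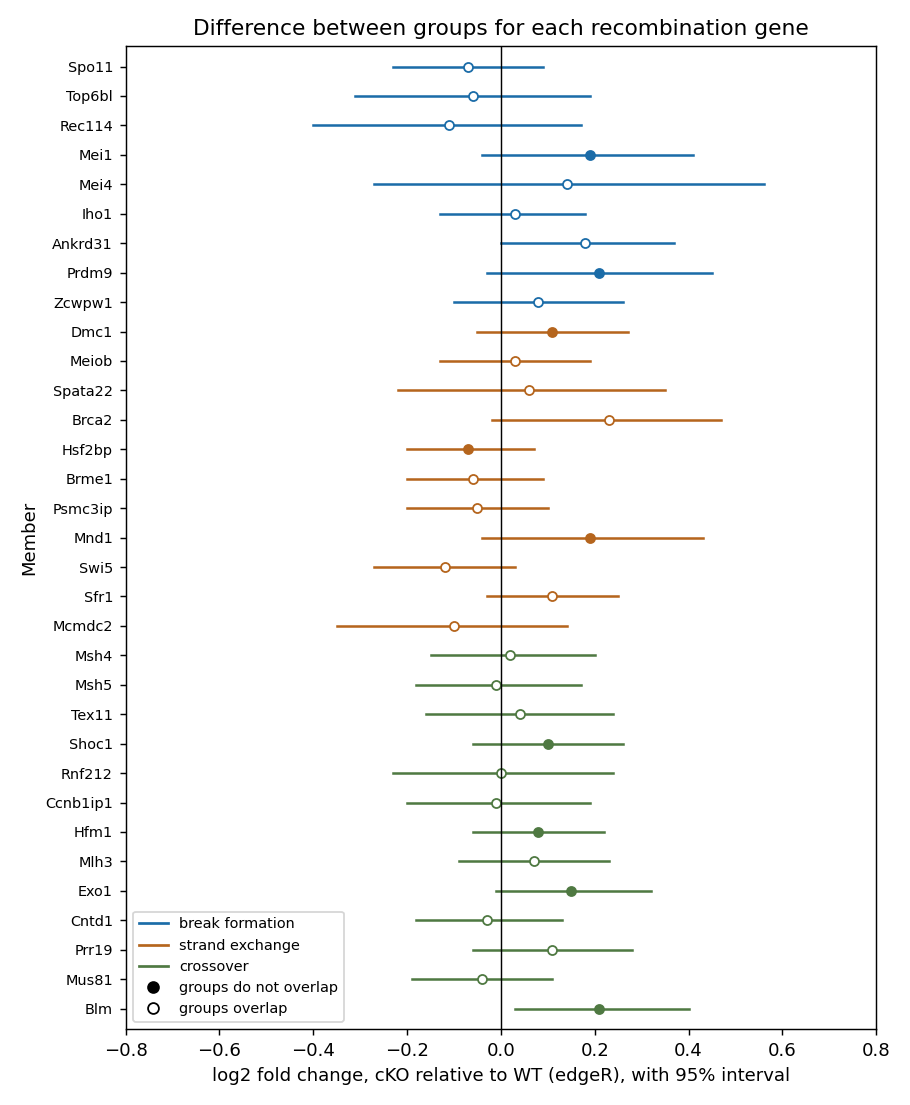
Log2 fold change of cKO relative to WT with its 95% interval for each member, by step. Filled points mark the 9 members whose libraries do not overlap between groups, and the interval lies wholly above 0 only for Blm.

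Members of the break formation step had a median log2 fold change of 0.08, with 6 of 9 positive. Spo11 (ENSMUSG00000005883, chr2:172977700-172993576) encodes the catalytic subunit of the break-forming enzyme. It stood at 63.3, 74.0 and 70.6 CPM in WT 1, 2 and 3 and at 63.7, 68.4 and 65.9 CPM in cKO 1, 2 and 3. The cKO libraries fell inside the WT range, and the log2 fold change was -0.07 (SE 0.074, edgeR adjusted p = 0.710). Per kilobase of annotated exon, Spo11 averaged 17.3 CPM over the 6 libraries. Its partner subunit Top6bl averaged 0.904 CPM on the same scale, so the 2 subunits of the enzyme differed far more from each other than either did between groups. The log2 fold change of Top6bl was -0.06 (SE 0.11).

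Prdm9 (ENSMUSG00000051977, chr17:15543079-15564354) encodes the zinc finger methyltransferase that selects break sites. Its level was 4.85, 4.27 and 4.70 CPM in WT and 5.13, 5.84 and 5.02 CPM in cKO. All cKO libraries lay above all WT libraries, the nearest being 5.02 in cKO 3 and 4.85 in WT 1. The log2 fold change was 0.21 (SE 0.11, edgeR adjusted p = 0.411), short of the threshold. Zcwpw1, which reads the histone marks that PRDM9 leaves and acts in repair of the breaks, had a log2 fold change of 0.08 (SE 0.082) with overlapping groups. The cKO 1 library was its highest, at 37.4 CPM, and the other 5 lay between 30.1 and 33.6.

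None of the accessory break factors passed the test. Mei1 (ENSMUSG00000068117, chr15:82069996-82126814), needed for break formation, was measured at 10.4, 8.12 and 10.1 CPM in WT and 11.2, 10.6 and 10.8 CPM in cKO. The groups did not overlap, but WT 1 and WT 3 came close to the cKO libraries, and WT 2 alone was low. Its log2 fold change was 0.19 (SE 0.10, edgeR adjusted p = 0.435), and without WT 2 it was 0.08. Rec114 and Mei4, which form a complex on chromosome axes, had log2 fold changes of -0.11 (SE 0.13) and 0.14 (SE 0.19) with overlapping groups. Iho1, which recruits that complex to the axis, was the steadiest member, between 14.8 and 15.4 CPM in all 6 libraries.

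Ankrd31, a scaffold that binds REC114 and is needed for breaks on the shared region of the X and Y chromosomes, is singled out here after its values were seen. It stood at 66.7, 67.0 and 67.7 CPM in WT and 66.7, 84.9 and 77.0 CPM in cKO. The cKO 1 library thus matched WT, and cKO 2 and 3 were higher. The log2 fold change was 0.18 (SE 0.084, edgeR adjusted p = 0.365). Leaving out cKO 1 raised it to 0.27 (edgeR adjusted p = 0.0655).

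For strand exchange the median log2 fold change was 0.03, with 6 of 11 positive. Dmc1 (ENSMUSG00000022429, chr15:79561497-79605109) encodes the meiosis-specific recombinase that carries out the homology search. It was measured at 18.7, 17.4 and 18.4 CPM in WT and 20.0, 18.8 and 20.1 CPM in cKO. The groups did not overlap, by 18.7 in WT 1 against 18.8 in cKO 2, and the log2 fold change of 0.11 (SE 0.074) was not called (edgeR adjusted p = 0.508). Meiob and Spata22, partners that coat single-stranded DNA, had log2 fold changes of 0.03 (SE 0.073) and 0.06 (SE 0.13). Their groups overlapped.

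Brca2, which brings recombinases to single-stranded DNA, is also named after its values were seen, as the member with the highest fold change. Its level was 58.0, 67.6 and 62.0 CPM in WT and 60.0, 85.5 and 74.3 CPM in cKO. As for Ankrd31, cKO 1 lay among the WT libraries and cKO 2 was the highest of the 6. The log2 fold change was 0.23 (SE 0.11, edgeR adjusted p = 0.385). Without cKO 1 it was 0.35 and Brca2 passed the threshold (edgeR adjusted p = 0.044), in a fit that called 628 of 22255 genes (2.82%).

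Hsf2bp and Brme1, which bind BRCA2 as a pair in spermatocytes, differed little between groups. Hsf2bp (ENSMUSG00000002076, chr17:31944769-32036349) stood at 63.9, 63.7 and 65.8 CPM in WT and 63.1, 61.7 and 59.8 CPM in cKO. It was the sole member with all cKO libraries below all WT libraries. The size was small, a log2 fold change of -0.07 (SE 0.063, edgeR adjusted p = 0.663). Brme1 had -0.06 (SE 0.065) with overlapping groups.

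Among the genes that stimulate strand invasion, Mnd1 and Psmc3ip encode the partners of a single complex. Mnd1 (ENSMUSG00000033752, chr3:84087933-84155786) was at 3.59, 3.68 and 3.38 CPM in WT and 4.04, 4.00 and 4.14 CPM in cKO. The groups stood clear of each other, with a log2 fold change of 0.19 (SE 0.11, edgeR adjusted p = 0.438). Psmc3ip had -0.05 (SE 0.068) with overlapping groups, and per kilobase of exon it averaged 59.1 CPM against 4.35 CPM for Mnd1. Of the 31-base words of Mnd1 transcripts, 56.4% also occur in the pseudogene Mnd1-ps, so part of its reads may not be placed uniquely. Mnd1-ps itself held at most 2 reads in any library, which does not show how many reads were left unplaced.

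Swi5 and Sfr1, which together assist strand exchange, had fold changes of opposite sign, neither past the test. Swi5 was the member with the most reads, at 167.3, 192.7 and 181.3 CPM in WT and 162.9, 168.4 and 166.6 CPM in cKO. Its groups overlapped only through WT 1, and the log2 fold change was -0.12 (SE 0.070, edgeR adjusted p = 0.457). Sfr1 had 0.11 (SE 0.065, edgeR adjusted p = 0.476). Mcmdc2, a helicase-like factor needed for stable pairing, had -0.10 (SE 0.11).

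For crossover formation the median log2 fold change was 0.04, with 9 of 13 positive. Msh4 (ENSMUSG00000005493, chr3:153857149-153906138) and Msh5 encode the clamp that stabilises recombination intermediates. Msh4 was measured at 22.1, 22.2 and 22.1 CPM in WT and 20.8, 24.6 and 22.1 CPM in cKO. The cKO libraries spread around the WT values, and the log2 fold change was 0.02 (SE 0.079, edgeR adjusted p = 0.921). Msh5 had -0.01 (SE 0.080). On the scale per kilobase of exon the 2 averaged 3.24 and 2.78 CPM.

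Other stabilising factors include the helicase Hfm1, the XPF-like protein Shoc1 and the X-linked Tex11. Hfm1 (ENSMUSG00000043410, chr5:106840192-106926321) stood at 90.7, 85.9 and 94.0 CPM in WT and 94.6, 97.1 and 94.4 CPM in cKO. Shoc1 (ENSMUSG00000038598, chr4:59043753-59138983) was at 13.8, 14.3 and 14.7 CPM in WT and 15.3 CPM in each cKO library. Neither gene's groups overlapped, although 94.0 in WT 3 and 94.4 in cKO 3 were close for Hfm1. The log2 fold changes were 0.08 (SE 0.065, edgeR adjusted p = 0.605) for Hfm1 and 0.10 (SE 0.074, edgeR adjusted p = 0.556) for Shoc1. Tex11 had 0.04 (SE 0.092) with overlapping groups.

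The designation factors mark which intermediates become crossovers. Rnf212 and Ccnb1ip1 (HEI10), a pair of RING-type ligases, had log2 fold changes of 0.00 (SE 0.11) and -0.01 (SE 0.089). Cntd1, a cyclin-like protein, and its partner Prr19 had -0.03 (SE 0.072) and 0.11 (SE 0.079). All 4 had overlapping groups. Cntd1 shares 3186 of its 4421 exon bases with Coa3 and Becn1 on the opposite strand, so its level rests on the strand of the reads. Over all alternatives, the unstranded counts among them, its log2 fold change stayed between -0.06 and 0.03.

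Resolution of joint molecules into crossovers depends on Mlh3, which encodes an endonuclease subunit, and on Exo1, a nuclease that acts with it. Mlh3 (ENSMUSG00000021245, chr12:85234520-85270599) was measured at 52.5, 53.4 and 54.5 CPM in WT and 51.6, 60.4 and 56.1 CPM in cKO. The groups overlapped through cKO 1, with a log2 fold change of 0.07 (SE 0.072, edgeR adjusted p = 0.717). Exo1 (ENSMUSG00000039748, chr1:175880581-175913489) was at 17.6, 15.8 and 17.1 CPM in WT and 18.9, 18.4 and 18.7 CPM in cKO. Its groups did not overlap, and the log2 fold change was 0.15 (SE 0.076, edgeR adjusted p = 0.391).

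Mus81 and Blm act outside the main crossover route. Mus81 (ENSMUSG00000024906, chr19:5482345-5488402), a nuclease subunit that makes a minor class of crossovers, stood at 36.9, 36.1 and 37.4 CPM in WT and 37.7, 34.9 and 34.8 CPM in cKO. The log2 fold change was -0.04 (SE 0.068, edgeR adjusted p = 0.840). Blm (ENSMUSG00000030528, chr7:80454733-80535119) encodes a helicase that takes joint molecules apart. It was at 39.5, 38.2 and 39.1 CPM in WT and 40.1, 50.8 and 44.5 CPM in cKO. All cKO libraries were higher, cKO 1 by little and cKO 2 by most, with a log2 fold change of 0.21 (SE 0.085, unadjusted p = 0.0287, edgeR adjusted p = 0.315). The 95% interval ran from 0.03 to 0.40. Without WT 2, WT 3, cKO 2 or cKO 3 the unadjusted p was no longer under 0.05, and without cKO 2 the log2 fold change was 0.12.

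**Figure D3:**
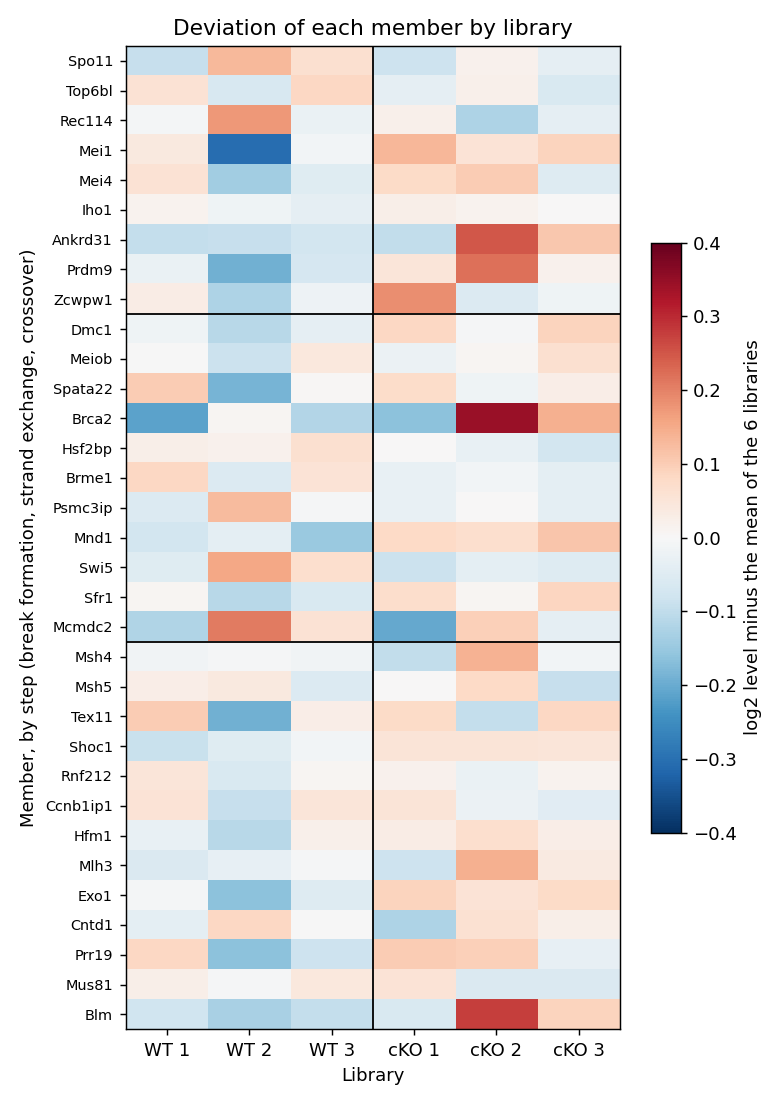
Log2 level of each member in each library minus its mean over the 6 libraries, as colour from blue (lower) to red (higher), with lines between steps and between groups. The deepest red cells are Brca2, Blm and Ankrd31 in cKO 2, and the WT 2 column holds the most blue cells.

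The extremes of the members were spread unevenly over the libraries. WT 2 was the lowest of the 6 libraries for 17 of the 33 members, a share set beside 23.6% of all genes tested. It was also the highest for 6 of the 33, beside 23.1% of all genes tested. Those 6 were Spo11, Rec114, Psmc3ip, Swi5, Mcmdc2 and Cntd1. The cKO 2 library was the highest for 9 members and the lowest for 1, against 24.0% and 22.7% of all genes tested. Without WT 1 or without cKO 1, 14 members had groups that did not overlap, beside 37.5% and 34.1% of all genes in those fits.

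Transcript length moved with the fold change across the whole table, and also, with a lower correlation, among the members. Across 16880 genes above 1 CPM the log2 fold change correlated with log2 length of the longest annotated transcript (Pearson r = 0.50, Spearman rho = 0.54), as a description across genes that share the same 6 libraries. The median was -0.17 in the shortest of 10 equal length classes and 0.17 in the longest. By library, the correlation of a gene's deviation with length was -0.17, -0.35 and -0.39 in WT 1, 2 and 3 and -0.01, 0.50 and 0.35 in cKO 1, 2 and 3. Among the 33 members the correlation was 0.34 (Spearman rho = 0.31), and its difference from that of all genes was not tested.

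The members were also examined with a correction for length and GC content, chosen after the data had been seen. It used the longest annotated transcript of each gene, and which transcript was expressed was not examined. Brca2, whose longest transcript has 10724 bases, then had a log2 fold change of 0.08 in place of 0.23, and Exo1 (7796 bases) 0.03 in place of 0.15. Ankrd31 (5859 bases) had 0.13 in place of 0.18, Mlh3 (5463 bases) 0.01 in place of 0.07, Hfm1 (5018 bases) 0.07 in place of 0.08 and Blm (4770 bases) 0.17 in place of 0.21. The shortest member, Mnd1 (875 bases), had 0.30 in place of 0.19. Some other short members rose too, among them Spata22 (1274 bases), at 0.16 in place of 0.06. Meiob (1774 bases) had 0.11 in place of 0.03, while Swi5 (4511 bases) had -0.15 in place of -0.12. The median over the members was 0.07 in place of 0.04. After the correction, the Pearson correlation with length was -0.19 among the members and 0.14 across genes above 1 CPM. The corrected fit called 0 members (lowest edgeR adjusted p = 0.426), and 4 had an unadjusted p under 0.05, beside 9.57% of all genes in that fit: Mnd1, Sfr1 and Blm, higher, and Swi5, lower. The part of length in the differences of single members was not tested beyond this correction.

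**Figure D4:**
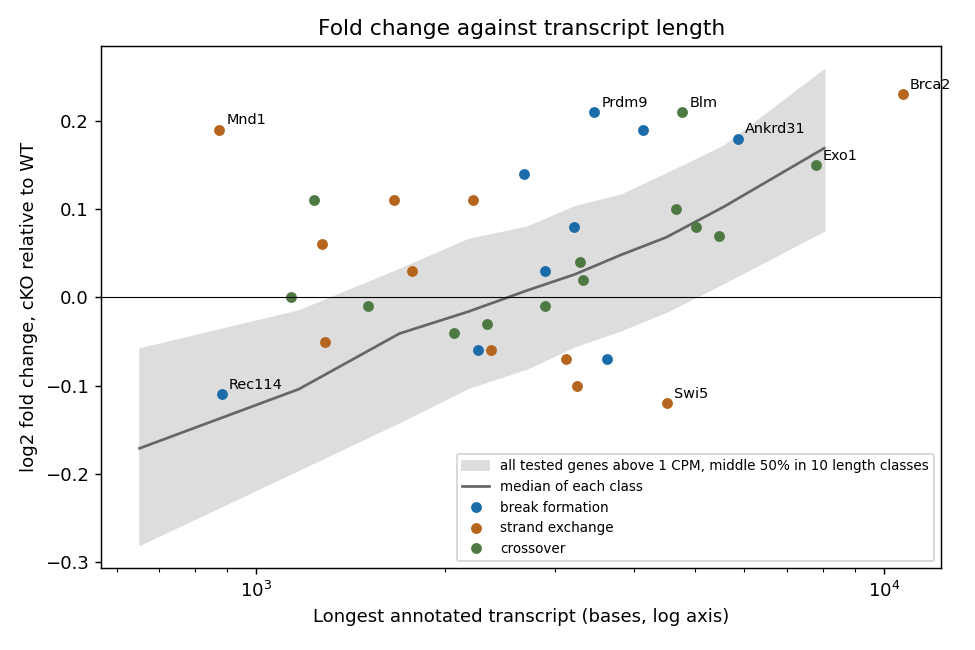
Log2 fold change of each member (points, coloured by step) against the length of its longest annotated transcript on a log axis, over the median (line) and middle 50% (grey band) of all tested genes above 1 CPM in 10 length classes. The line climbs from -0.17 to 0.17, and Brca2 and Exo1 sit at its long end while Mnd1 lies above it at the short end.

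The 45 further recombination genes were counted the same way: 0 passed the adjusted threshold, and the median log2 fold change was 0.06. At an unadjusted p under 0.05 there were 7 higher (background 7.33%) and 2 lower (background 6.54%). The values of these further genes are without correction for transcript length. The 3 with the lowest p were Rad51b, Mcm8 and Brca1. Rad51b, which acts in recombination repair, was at 7.81, 7.12 and 7.48 CPM in WT and 6.24, 6.54 and 5.99 CPM in cKO, a log2 fold change of -0.26 (SE 0.094, edgeR adjusted p = 0.306). Mcm8, a helicase of recombination repair, had 0.22 (SE 0.083, edgeR adjusted p = 0.307), and Brca1, which acts in end processing and recombinase loading, 0.25 (SE 0.095, edgeR adjusted p = 0.310). Groups of these 3 genes did not overlap.

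The cell mixture was described by marker lists, summed per library without the members. Markers of leptotene and zygotene spermatocytes, the stages in which breaks are made and strands exchanged, summed to 1121.6 to 1163.2 CPM in WT. In cKO 1, 2 and 3 they summed to 1122.9, 1310.0 and 1232.8 CPM. Of these 6 markers, 4 had a positive fold change and 2 a negative one. The 9 break formation genes summed to 200.9 to 206.9 CPM in WT and 206.1 to 223.1 in cKO, with cKO 2 again the highest. Strand exchange genes summed to 603.5 to 638.2 and 599.1 to 630.4 CPM, and crossover genes to 510.9 to 520.9 and 517.8 to 555.7 CPM.

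Pachytene and diplotene markers (10 genes) summed to 7649.9 to 7801.1 CPM in WT and 7084.6 to 7693.2 in cKO, and these ranges overlapped. Of them, 7 had a negative fold change and 3 a positive one. Sums of round spermatid markers (8 genes) did not overlap, at 1760.3 to 1798.1 CPM in WT and 1568.5 to 1714.0 in cKO. Gene by gene, 7 were lower in cKO and 1 higher, and 2 had groups that did not overlap. Sums of endothelial markers (5 genes) did not overlap either, at 39.8 to 40.9 and 41.9 to 50.9 CPM. All 5 were higher in cKO, 2 of them without overlap. A sum is carried most by the genes with the highest levels, and no sum was corrected for transcript length. Sums of the other lists, spermatogonial, elongating spermatid, Sertoli, Leydig, peritubular myoid and macrophage markers, overlapped between the groups. Their part in the values of the recombination genes was not tested.

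Overlapping genes limit the count of some members. Spata22 shares 1025 of its 1274 exon bases with Gm49340 on the same strand. Ccnb1ip1 shares 233 bases with Rpph1, and Gm49340 and Rpph1 held 0 reads in every library. Only reads assigned to single genes were counted, so those 0 reads do not show how many shared reads were left out. The values of Spata22 therefore rest on a small part of its exon bases. Another 10 members overlap an exon of a gene on the opposite strand, which the strand-specific counts separate. Levels per kilobase use all annotated exon bases of a gene, so they are understated where long rare exons are annotated, and they show no order between genes that lie close together.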

How the data were processed

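The authors deposited raw counts of reads per gene for each of the 6 libraries, unstranded and for each strand, in the gene count layout of STAR. STAR, HTSeq, DESeq2 and mm10 are named in the submitters' processing notes, with no role or version, and reads were single-end per the labels' protocols. Counts on the opposite strand (96.0% to 96.2% of strand-assigned reads) were used. Lines for reads outside single genes (14.8% to 16.7%) were left out of library sizes. GENCODE M21, on the same build as mm10, supplied names, positions and lengths for 52147 of 53700 identifiers.

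Tests used edgeR 4.0.16 in R 4.3.3: filterByExpr (minimum count 10), TMM scaling, and quasi-likelihood testing of the genotype term, no covariate, Benjamini-Hochberg adjustment over 21902 genes. Standard errors come from the F statistic, and intervals are at 95%. CPM use TMM-scaled library sizes. The procedure was tested on simulated counts. Alternatives were other scalings, no filter, unstranded counts, a replicate block, robust fitting, DESeq2 1.42.0, a threshold of 0.1, each library left out, and a loess correction (span 0.3).

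The members, lists and tests were chosen with earlier results of these data known. Values are given per library for members with an unadjusted p under 0.05 or groups that do not overlap, and for Spo11, Prdm9, Dmc1, Msh4, Mlh3 and Mus81. Those of Ankrd31, Brca2 and Swi5 were added after their values were seen. Of the further recombination genes, the 3 with the lowest p are named.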

Additional observations from a re-analysis of the deposited data

How the results depend on the processing

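No member passed the adjusted threshold under 13 of the 14 alternatives or at a threshold of 0.1. The exception was the fit without cKO replicate 1, which called 1 member, Brca2. The count of all called genes, 4, was 6 with RLE scaling, robust fitting or the GC content and length correction, 757 without the filter, 2 with unstranded counts and 199 with DESeq2, which left 7 members without an adjusted p. It was 1 to 628 without single libraries, with 0 to 1 members called. Members with an unadjusted p under 0.05, 1 with all libraries, numbered 3 without the filter (10.6% of all genes there), 2 with robust fitting (13.7%), 2 with DESeq2 (11.9%), 4 with the length correction (9.57%), and 0 to 4 without single libraries (6.36% to 18.2%). Members without overlap, 9, numbered 9 to 14 without single libraries, beside 23.5% to 37.5% of all genes. Medians by step moved there from 0.02 to 0.12 for break formation, -0.0036 to 0.053 for strand exchange and 0.021 to 0.078 for crossover. With library totals alone the strand exchange median was 0.0054, and with the length correction it was 0.076 and that of crossover 0.071. The cause was not tested.

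Deviations of same-numbered libraries had correlations of 0.38, 0.26 and -0.07 for numbers 1, 2 and 3. Libraries numbered 1 and 2 correlated best with their own number, and those numbered 3 did not. The labels do not state that replicate numbers pair mice, so a replicate block was used only as an alternative. With a replicate block 49 genes were called, 0 of them members (lowest adjusted p 0.132), and 4 members had an unadjusted p under 0.05, beside 18.7% of all genes.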
